A study of Mus musculus with 5 samples.

Results

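Genes of glucose uptake, glycolysis and lactate formation, 10 in all, were described in mouse mammary gland: the hexokinases Hk1, Hk2 and Hk3, the phosphofructokinase subunits Pfkl, Pfkm and Pfkp, the phosphoglycerate kinase Pgk1, the lactate dehydrogenase subunits Ldha and Ldhb, and the glucose carrier Slc2a1. They were chosen by name, and where several probe sets carried only that symbol, the brightest on average was read. All 10 were among the 19938 genes with such a probe set. Total RNA came from 8 week old female FvB/N mice, 1 array per mouse. The 2 control mice carried the MMTV-rtTA transgene, in which a mammary tumour virus promoter active mainly in mammary epithelium drives the doxycycline-dependent activator rtTA. The 3 cyclin D1 mice carried rtTA together with a CCND1 transgene. A protocol note in the labels gives 7 days of doxycycline, but it words this for mice with a "KE" mutant of CCND1 and does not say whether the controls received the drug. The study's title and design ask what acute cyclin D1 expression does to the gland.

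Glycolysis splits glucose into pyruvate in the cytosol and yields ATP without oxygen. Glucose enters through carriers such as GLUT1, the product of Slc2a1, is trapped by hexokinase, committed by phosphofructokinase and oxidised further down, where phosphoglycerate kinase makes ATP; lactate dehydrogenase then turns pyruvate into lactate and restores NAD+. Several steps have isoforms from separate genes with different tissue distributions, and in the secretory mammary gland glucose is also the precursor of lactose.

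The 2 groups of arrays did not have the same range of values, and this bears on every difference below. The standard deviation of log2 expression across genes was 0.735 and 0.926 on the control arrays and 1.20 to 1.38 on the cyclin D1 arrays. The median log2 difference, cyclin D1 minus control, went with expression level from -0.29 in the lowest decile of genes to 1.59 in the highest. The differences of the 10 genes are therefore given as deposited, beside the median of all genes in the same decile of mean level, and again with all 5 arrays forced by quantile normalization onto 1 distribution of gene values ("renormalized"). That mean level was taken over all 5 arrays, cyclin D1 arrays included. A gene's own difference thus helps to set its decile, and the decile median is not an independent yardstick. Ccnd1 overlapped between the groups: it read 4.04 and 3.49 in the controls and 4.63 and 4.92 in cyclin D1 replicates 1 and 2, and replicate 3 lay between the controls. Its difference of 0.75 (SE 0.32, limma adjusted p = 0.218) was -0.14 renormalized. The probe set is annotated to the mouse gene Ccnd1. Whether it also reads the CCND1 transgene was not tested, so these values are no measure of transgene expression. Tests are limma's moderated test with Benjamini-Hochberg adjustment over all 19938 genes and a threshold of 0.05.

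As deposited, 1 of the 10 genes, Ldha, was higher in cyclin D1 glands and 0 were lower, where 5.38% of all genes tested were called higher and 0.687% lower. At an unadjusted p under 0.05 there were 4 of 10, namely Hk1, Pfkl, Pgk1 and Ldha, against 5244 of all 19938 genes. With the lowest-mean probe sets of Hk1, Pgk1 and Ldhb the count was 3 of 10, and the chosen Hk1 probe set is doubtful (below). All 10 differences were positive, with a median of 0.51, against 44.3% positive and a median of -0.053 over all genes. After renormalization 0 of the 10 passed in either direction by limma (0.256% of all genes were called higher and 0.105% lower). Of the 10, 2 then had an unadjusted p under 0.05, against 3736 of all 19938 genes. Renormalized, 7 differences were positive (47.8% of all genes) and the median was 0.22. In 5 genes, Hk1, Pfkl, Pgk1, Ldha and Ldhb, all 3 cyclin D1 values lay above both controls, which held for 22.4% of all genes; 0 of the 10 lay below both controls (22.6% of all genes, and 45% in either direction). On the renormalized scale 5 genes again stood apart in this way, against 20.1% of all genes, and again 0 lay below (19.5% of all genes, 39.6% in either direction), but the 5 were Hk1, Hk3, Pfkl, Pfkm and Ldhb.

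**Figure D1:**
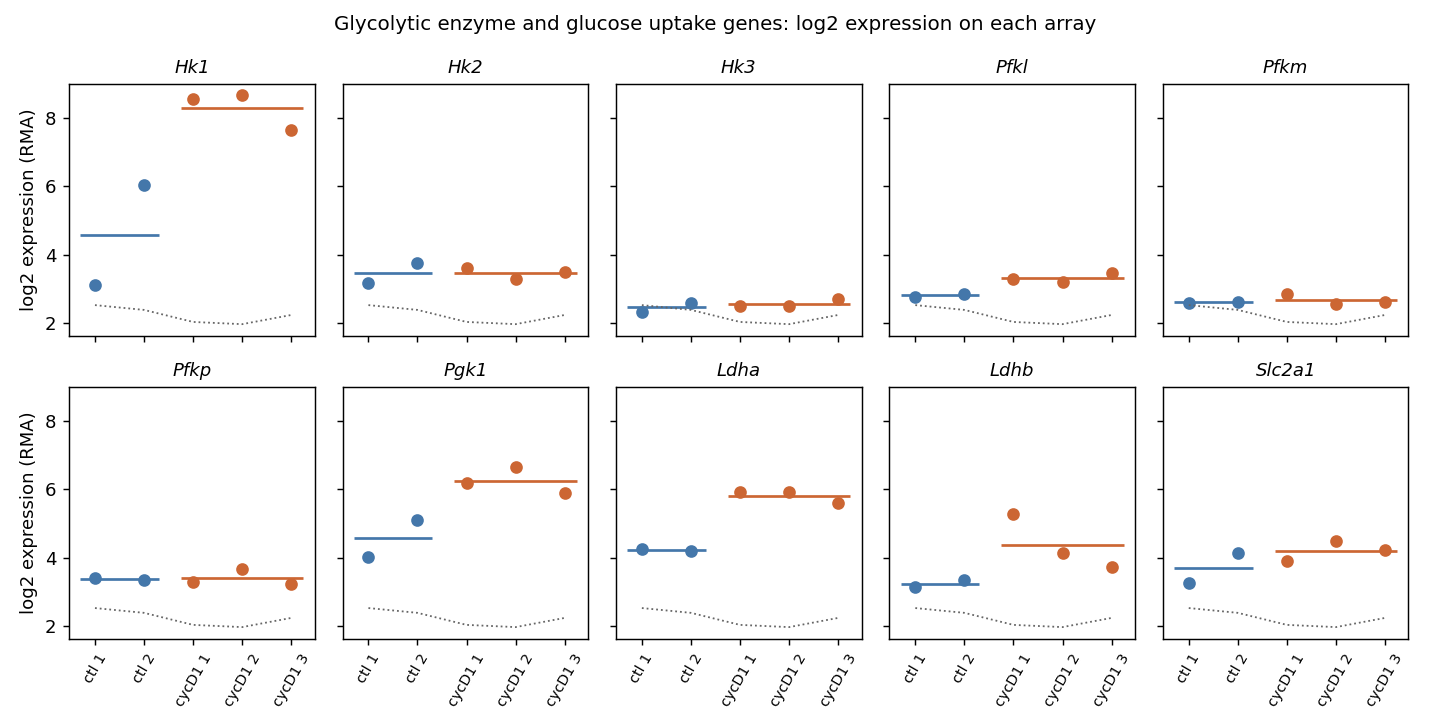
Log2 expression (y axis) of the 10 genes on each of the 5 arrays (x axis; ctl, control; cycD1, cyclin D1). Points are single mice, horizontal lines group means, and the dotted line the mean of 1015 olfactory receptor genes on each array, used as a rough floor; Ldha lies near 4.2 in both controls and at 5.58 to 5.93 in the cyclin D1 glands.

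Lactate dehydrogenase is a tetramer of A and B subunits; the A subunit, encoded by Ldha, favours the formation of lactate, and the B subunit, encoded by Ldhb, the use of lactate as a fuel. Ldha (probe set 10553301, gene at chr7:46842274-46855627 of GRCm38.p6) read 4.24 and 4.19 in the controls and 5.91, 5.93 and 5.58 in the cyclin D1 glands. The groups were far apart relative to the spread within them. Ldha rose by 1.59 on the log2 scale (SE 0.16), which is 3.01-fold (limma adjusted p = 0.0168). The median gene of its decile also differed by 1.59, and 36% of the genes in that decile were called higher. Renormalized, Ldha was 5.42 and 4.66 in the controls and 5.29, 5.19 and 5.25 in the cyclin D1 glands, with control 1 the highest of all arrays, and the difference was 0.20 (SE 0.25, adjusted p = 0.671). The call was also lost when control 1 (adjusted p = 0.103), cyclin D1 replicate 1 (adjusted p = 0.0957) or cyclin D1 replicate 2 (adjusted p = 0.0684) was left out, with differences of 1.53 to 1.61 in those 3 fits. In each of them limma called 0 of all 19938 genes in either direction (3491 to 4973 had an unadjusted p under 0.05), so the loss was common to all genes and is no measure of how stable Ldha was; without control 1 the spread came from the cyclin D1 arrays alone.

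Ldhb (probe set 10462035, gene at chr6:142490249-142507957) read 3.14 and 3.34 in the controls and 5.28, 4.12 and 3.72 in the cyclin D1 glands. All 3 cyclin D1 values were above the controls, and replicate 1 stood well above the other two. The difference of 1.13 (SE 0.47, 95% interval -0.047 to 2.32, limma adjusted p = 0.204) did not pass; it was 0.77 renormalized and 0.68 without cyclin D1 replicate 1, and the median of its decile was 0.67. A second probe set of the gene, 10549097, read lower, at 2.08 and 2.19 in controls and 3.63, 2.33 and 2.43 in cyclin D1 glands, with replicate 1 again the highest and a difference of 0.66. Both control values lay below the olfactory receptor averages of 2.52 and 2.38 for those arrays, so this difference is inexact. Within an array, Ldha minus Ldhb was 1.1 and 0.85 in the controls and 0.63, 1.81 and 1.86 in the cyclin D1 glands. This difference between the subunits shifted by 0.46 between the groups (two-sided exact permutation test, p = 0.4, the smallest possible being 0.1) and by -0.57 renormalized. With the second Ldhb probe set the shift was 0.93 (exact permutation p = 0.2) as deposited. With these 5 mice the test cannot pass 0.05 whatever the size of the shift, for this pair or any other.

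Pgk1 (probe set 10601390, gene at chrX:106187100-106203699) encodes the first ATP-generating enzyme of glycolysis. It read 4.03 and 5.10 in the controls and 6.17, 6.65 and 5.89 in the cyclin D1 glands. The groups did not overlap, but the controls were 1.07 apart. The difference of 1.67 (SE 0.39, 95% interval 0.70 to 2.64, limma adjusted p = 0.069) did not pass and lay close to the median of 1.59 of its decile. Renormalized, the difference was 0.23 (SE 0.25, adjusted p = 0.639) and the groups overlapped. Pgk1 had 2 further probe sets, 10399379 and 10498313, which held identical values on every array and differed by 1.82 between groups.

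The stretches before the start sites of these genes are shown because Ldha and Pgk1 had the highest differences apart from Hk1. Those differences lay close to their decile median of 1.59 and were 0.20 and 0.23 renormalized. Both genes are textbook targets of the hypoxia factor HIF-1, whose binding core is ACGTG or GCGTG. MYC and other E-box factors bind CACGTG, which contains ACGTG. The sequences are RefSeq promoters of GRCm38.p6, in the direction of transcription. Each Ldha, Hk2 and Slc2a1 line is cut around 1 site, which alone is in capitals; in Pgk1 both sites are. Capitals read CACGTG where the match is the E-box and CACGT where the core lies on the other strand. The third Ldha line begins inside the second Ldha site, left in lower case there. Matches that overlap were counted as 1 site.
Pgk1, chrX:106186850-106187099, + strand, the 250 bases before the start: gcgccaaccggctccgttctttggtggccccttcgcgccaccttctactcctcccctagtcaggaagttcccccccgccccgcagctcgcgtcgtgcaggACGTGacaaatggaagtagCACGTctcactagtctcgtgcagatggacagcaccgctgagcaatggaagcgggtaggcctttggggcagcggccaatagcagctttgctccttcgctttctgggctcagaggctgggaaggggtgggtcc
Ldha, chr7:46845647-46845676, + strand: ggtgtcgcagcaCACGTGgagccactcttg
Ldha, chr7:46845744-46845773, + strand: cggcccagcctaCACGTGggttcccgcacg
Ldha, chr7:46845757-46845786, + strand: acgtgggttcccgCACGTccgctgggctcc
Hk2, chr6:82774664-82774693, - strand: tagccacggaacaCACGTcccaactctggc
Hk2, chr6:82774490-82774519, - strand: caatgagcacatcCACGTcactgtccgggg
Slc2a1, chr4:119108696-119108725, + strand: agtcccgccccggACGTGctccccaggccc

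Within the 250 bases before a start, the window of the first of 2 Ldha starts held 3 ACGTG sites, of which 2 were CACGTG, and the other start held 0. Pgk1 and Hk2 held 2 each and Slc2a1 held 1. In all, 7 of the 15 listed starts, of 6 genes, had an ACGTG site; Hk3 and Pfkm were the other genes. A GCGTG site was before 8 of the 15 starts, of 7 genes. Of 32851 mouse windows of the same length, 16.6% held at least 1 ACGTG site, 1.95% at least 2 and 0.256% at least 3; GCGTG was in 28.2% and CACGTG in 6.02%. Hk2, which has as many ACGTG sites as Pgk1, showed a difference near 0 (below). A match is a description of the letters and not a measured binding site, and a link between sites and differences was not tested.

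The 3 hexokinases phosphorylate glucose on entry: hexokinase 1 is the general housekeeping form, hexokinase 2 the form of muscle and fat, and hexokinase 3 a form of myeloid cells. By the rule of the highest mean, Hk1 was read from probe set 10414661, at 3.10 and 6.03 in the controls and 8.54, 8.66 and 7.65 in the cyclin D1 glands. The cyclin D1 values were the higher ones, while the controls were 2.92 apart. The difference of 3.72 (SE 0.88, 95% interval 1.52 to 5.93, limma adjusted p = 0.0719) was the highest of the 10 genes and did not pass; it was 2.26 without control 1, 5.18 without control 2 and 2.70 renormalized, where the median of its decile was 1.59 as deposited.

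This probe set is a doubtful measure of Hk1. Its annotation lists a single GenBank record, which is listed for 18 probe sets in all, 16 of them also annotated to Rpl17, a ribosomal protein gene. Those 16 shared probe sets read 4.48 to 7.52 in the controls and 6.91 to 9.49 in the cyclin D1 glands, with differences of 1.78 to 2.97 and a median of 2.77. On every cyclin D1 array the chosen probe set lay within the range of the shared ones, and in control 1 it lay below all of them. The other probe set annotated to Hk1 alone, 10369541, lists that record together with RefSeq transcripts of the gene (chr10:62268855-62379920). It read 2.62 and 2.78 in the controls and 2.86 on all 3 cyclin D1 arrays, a difference of 0.16 (limma adjusted p = 0.447). That probe set was dim, against olfactory receptor averages of 2.52 and 2.38 in the controls, so its difference is inexact. The 2 probe sets of 1 symbol thus gave differences of 3.72 and 0.16, and the high level and large difference of the first were not seen in the probe set that lists the gene's RefSeq transcripts. With that probe set, the median difference over the 10 genes (also with the lowest-mean probe sets of Pgk1 and Ldhb) was 0.33 in place of 0.51.

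**Figure D2:**
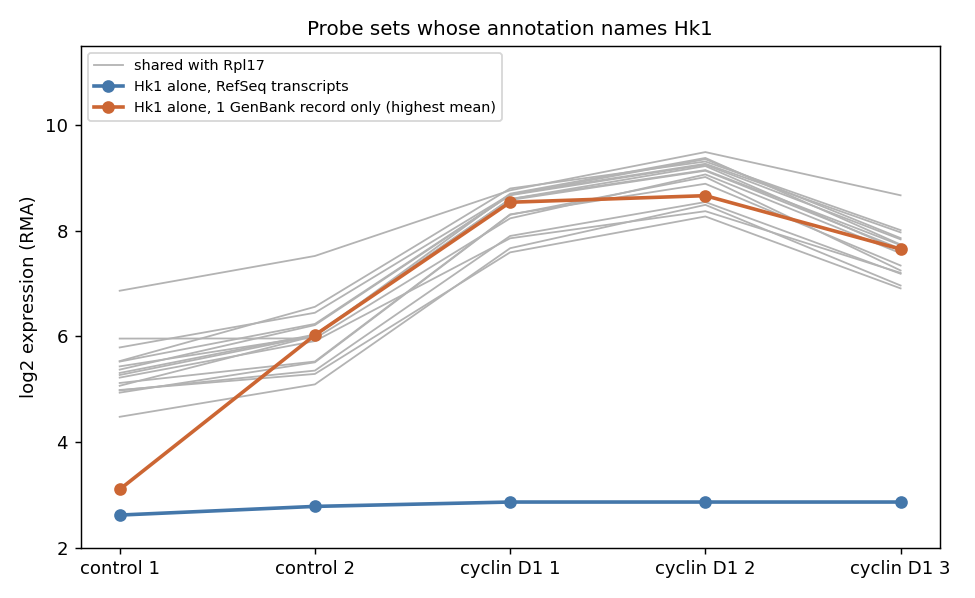
Log2 expression (y axis) on the 5 arrays (x axis) of the 18 probe sets whose annotation names Hk1. Grey lines are the 16 shared with Rpl17; the orange line, the probe set chosen by the highest mean, joins them in the cyclin D1 glands, while the blue line, with RefSeq transcripts of Hk1, stays between 2.62 and 2.86.

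Hk2 (probe set 10545588) read 3.16 and 3.77 in the controls and 3.61, 3.30 and 3.50 in the cyclin D1 glands. The cyclin D1 values all lay between the 2 controls. The difference was 0.0074 (SE 0.23, 95% interval -0.56 to 0.58, limma adjusted p = 0.987) and -0.24 renormalized, with an interval of -0.89 to 0.41; the median of its decile was 0.17 as deposited. Hk3 (probe set 10409376) read 2.33 and 2.59 in the controls and 2.49, 2.49 and 2.70 in the cyclin D1 glands. In control 1 it was under the olfactory receptor average of 2.52 for that array, a level taken from genes silent in most tissues, so its difference of 0.11 (SE 0.16, limma adjusted p = 0.685; 0.26 renormalized, decile median -0.16) is inexact. The macrophage and neutrophil markers had a median difference of 0.028, with 0 of 7 passing by limma and 1 at an unadjusted p under 0.05. Hk1 minus Hk2 shifted by 3.71 between groups with the chosen Hk1 probe set (exact permutation p = 0.1, adjusted over the 7 isoform pairs compared 0.35) and by 0.16 with the other one (exact permutation p = 0.5), or by 0.50 renormalized (p = 0.1 by the same exact test). Hk2 minus Hk3 shifted by -0.099 (exact permutation p = 0.5) and, renormalized, by -0.50 (p = 0.1 by the same exact test).

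Phosphofructokinase makes the committed step of glycolysis, and its subunits are named for liver (Pfkl), muscle (Pfkm) and platelet (Pfkp). Pfkl (probe set 10370376, gene at chr10:77986947-78009807) read 2.77 and 2.85 in the controls and 3.30, 3.20 and 3.47 in the cyclin D1 glands. The groups were apart by more than the spread within either. The difference of 0.51 (SE 0.14, 95% interval 0.15 to 0.88, 1.43-fold, limma adjusted p = 0.101) did not pass. The median gene of its decile differed by only 0.026, and renormalized the difference was 0.53 (SE 0.14, adjusted p = 0.146), with values of 2.71 and 2.81 against 3.28, 3.18 and 3.41. It was 0.44 to 0.58 with each array left out in turn. Pfkl was thus the gene of the set whose difference kept its size on both scales, without passing on either. Its control values were not far above the olfactory receptor averages of 2.52 and 2.38 on those arrays, so the size of the difference is inexact.

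Pfkm (probe set 10426557) read 2.60 in both controls and 2.84, 2.55 and 2.60 in the cyclin D1 glands, a difference of 0.063 (95% interval -0.31 to 0.43, limma adjusted p = 0.808) that was 0.18 renormalized, with a decile median of -0.11. Cyclin D1 replicate 1 was the highest and the other cyclin D1 values were level with the controls. In control 1 Pfkm lay just above the olfactory receptor average of 2.52, so its difference is inexact. The 6 skeletal muscle markers averaged 3.00 to 3.01 in the controls and 2.75 to 2.82 in the cyclin D1 glands, with 0 passing by limma and 0 at an unadjusted p under 0.05. Pfkp (probe set 10407481) read 3.42 and 3.34 in the controls and 3.29, 3.65 and 3.23 in the cyclin D1 glands, a difference of 0.011 (95% interval -0.43 to 0.46, limma adjusted p = 0.974) that was -0.24 renormalized, with a decile median of 0.17. The groups overlapped. Pfkl minus Pfkm was 0.17 and 0.25 in the controls and 0.46, 0.66 and 0.87 in the cyclin D1 glands, a shift of 0.45 (exact permutation p = 0.2, 0.35 adjusted over 7 pairs) that was 0.35 renormalized. Pfkl minus Pfkp shifted by 0.50 (exact permutation p = 0.2) and, renormalized, by 0.78 (p = 0.1 by the same exact test). Pfkm minus Pfkp shifted by 0.051 (exact permutation p = 0.8) and, renormalized, by 0.42 (p = 0.3 by the same exact test).

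Slc2a1 (probe set 10507594, gene at chr4:119108745-119137330) encodes GLUT1, the main glucose carrier of mammary epithelium. It read 3.26 and 4.14 in the controls and 3.91, 4.47 and 4.23 in the cyclin D1 glands. Control 2 lay within the cyclin D1 values and control 1 below them. The difference of 0.50 (SE 0.31, 95% interval -0.29 to 1.29, limma adjusted p = 0.356) was below the median of 0.67 of its decile, was -0.030 renormalized and 0.066 without control 1.

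**Figure D3:**
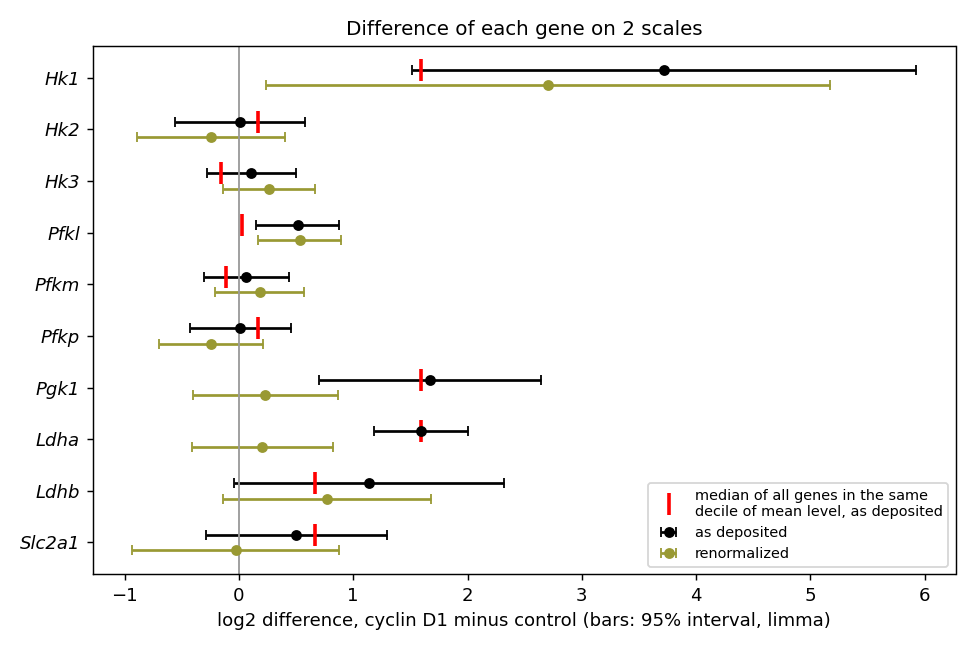
Log2 difference, cyclin D1 minus control (x axis), of each of the 10 genes (y axis), as deposited (black) and renormalized (olive), with 95% limma intervals. Red ticks give the median difference, as deposited only, of all genes in the same decile of mean level. As deposited, Ldha and Pgk1 lie close to their red tick of 1.59. Pfkl lies to the right of its tick as deposited, at 0.51, and is at 0.53 renormalized.

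**Figure D4:**
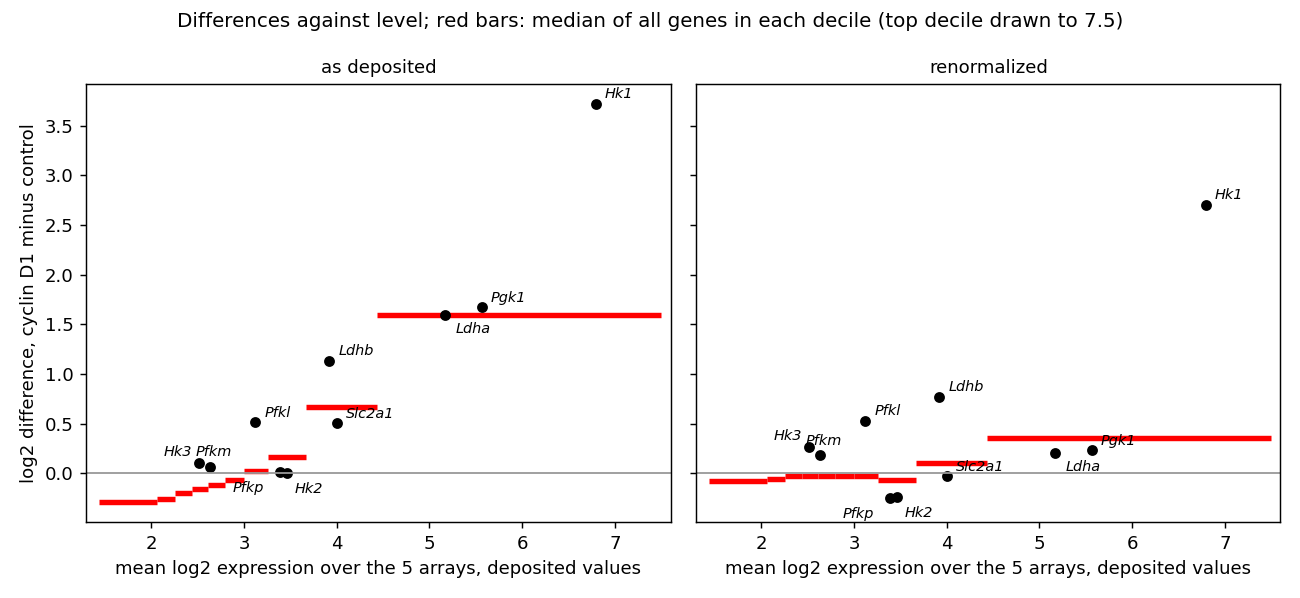
Log2 difference (y axis) of the 10 genes (points) against their mean log2 expression over the 5 arrays (x axis), as deposited (left) and renormalized (right); red bars give the median difference of all genes in each decile of mean level. The bars climb from -0.29 to 1.59 on the left and from -0.075 to 0.36 on the right.

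The other genes of glucose, lactate and pyruvate use were taken from 6 functional lists of 66 names, 59 of them measured. Of these, 6 were higher as deposited (10.2%, against 5.38% of all genes) and 0 lower, with a median difference of 0.11. At an unadjusted p under 0.05 there were 20 of 59, against 5244 of all 19938 genes. Renormalized, 0 passed by limma and the median was 0.020, with 13 of 59 at an unadjusted p under 0.05 against 3736 of all genes. Of the 14 other glycolytic enzymes measured 0 passed by limma, 0 had an unadjusted p under 0.05, and their median was 0.035. Aldoc and Aldoa, which split fructose bisphosphate, had the highest differences, of 1.31 (adjusted p = 0.211; 0.98 renormalized) and 0.71 (-0.51 renormalized), and Hkdc1, a hexokinase-like gene, and Eno2, the neuronal enolase, the lowest, of -0.63 and -0.61 (-0.53 and -0.46 renormalized); both were no brighter than the olfactory receptor level in 1 control and 1 cyclin D1 gland, so these values and their order are inexact. Gapdh, Gpi1 and Eno1 were among the listed genes not measured, having no probe set annotated to that symbol alone.

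Among 11 glucose transporters Slc5a1, which takes up glucose with sodium, was the 1 that rose, by 0.91 (SE 0.18, limma adjusted p = 0.0484). It read 2.68 and 3.00 in the controls and 3.57, 3.77 and 3.90 in the cyclin D1 glands, and differed by 0.85 renormalized (limma adjusted p = 0.104). The groups did not overlap, but in control 1 Slc5a1 was not far above the olfactory receptor average of 2.52. The next transporter, Slc2a12 (0.30), did not exceed the olfactory receptor level in either control, and the lowest difference was that of Slc2a4, the insulin-responsive carrier of fat and muscle, at -0.39 (adjusted p = 0.284), followed by Slc2a8 at -0.27. Of 5 lactate and pyruvate transporters Bsg rose by 1.31 (SE 0.22, limma adjusted p = 0.0359; 0.80 renormalized). Bsg encodes basigin, the chaperone that brings monocarboxylate carriers to the cell surface. Mpc1, a subunit of the mitochondrial pyruvate carrier, differed by 2.61 (adjusted p = 0.0527; 1.11 renormalized), Slc16a7 by 0.30 and Slc16a3, the lactate exporter MCT4, by -0.38 (adjusted p = 0.135).

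Pyruvate dehydrogenase sends pyruvate to the mitochondrial citric acid cycle, and its list also holds the kinases that inhibit it and the phosphatases that release it. Differences were positive in 11 of 11 as deposited (44.3% of all genes) and in 8 of 11 renormalized (47.8% of all genes), with medians of 0.85 and 0.32. Apart from Pdk3 and Pdp2, these genes lay in deciles 8 to 10 of mean level. The medians of those deciles were 0.17, 0.67 and 1.59 as deposited, so the shares over all genes are not matched for level. Pdha1, its catalytic subunit, rose by 2.54 (SE 0.39, limma adjusted p = 0.0315) and Dld, the shared dihydrolipoamide dehydrogenase, by 2.46 (SE 0.41, limma adjusted p = 0.0359). Renormalized they differed by 1.44 and 0.68, neither passing. Pdk3, a kinase, and Pdp2, a phosphatase, had the lowest differences, of 0.20 and 0.017. Of 10 genes of fructose bisphosphate turnover and gluconeogenesis 0 passed by limma and 2, Pfkfb2 and Tigar, had an unadjusted p under 0.05. Pfkfb2, which makes the activator of phosphofructokinase, differed by 1.78 (adjusted p = 0.0777; 1.52 renormalized), Pcx by 0.52, Tigar by -0.50 and Fbp1 by -0.32, the last no brighter than the olfactory receptor level on any array.

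Of 8 factors known to act on glycolytic genes 2 rose (25%, against 5.38% of all genes). Hif1a, the oxygen-regulated subunit of HIF-1, read 4.16 and 3.89 in the controls and 6.26, 6.85 and 6.17 in the cyclin D1 glands. It rose by 2.40 (SE 0.25, limma adjusted p = 0.0169), above the median of 1.59 of its decile, and differed by 1.02 renormalized (adjusted p = 0.212). Mlxip, a glucose-responsive factor, rose by 0.69 (SE 0.13, limma adjusted p = 0.0462; 0.39 renormalized). Txnip, an inhibitor of glucose uptake, differed by 1.96 (adjusted p = 0.116; 0.20 renormalized), Myc by -0.20 (adjusted p = 0.821; -1.85 renormalized) and Mlxipl, which encodes ChREBP, by -0.56 (adjusted p = 0.179; -1.25 renormalized). As deposited, the decile medians of the 6 genes that rose were 0.17 for Slc5a1, 0.67 for Bsg and Mlxip and 1.59 for Pdha1, Dld and Hif1a. Of the 59 genes, 1 was called higher without cyclin D1 replicate 3 and 4 without control 2. With cyclin D1 replicate 1 or cyclin D1 replicate 2 left out the count was 0 by limma, as it was over all 19938 genes. In those fits 11 and 14 of the 59 had an unadjusted p under 0.05, against 3568 and 3491 of all genes.

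**Figure D5:**
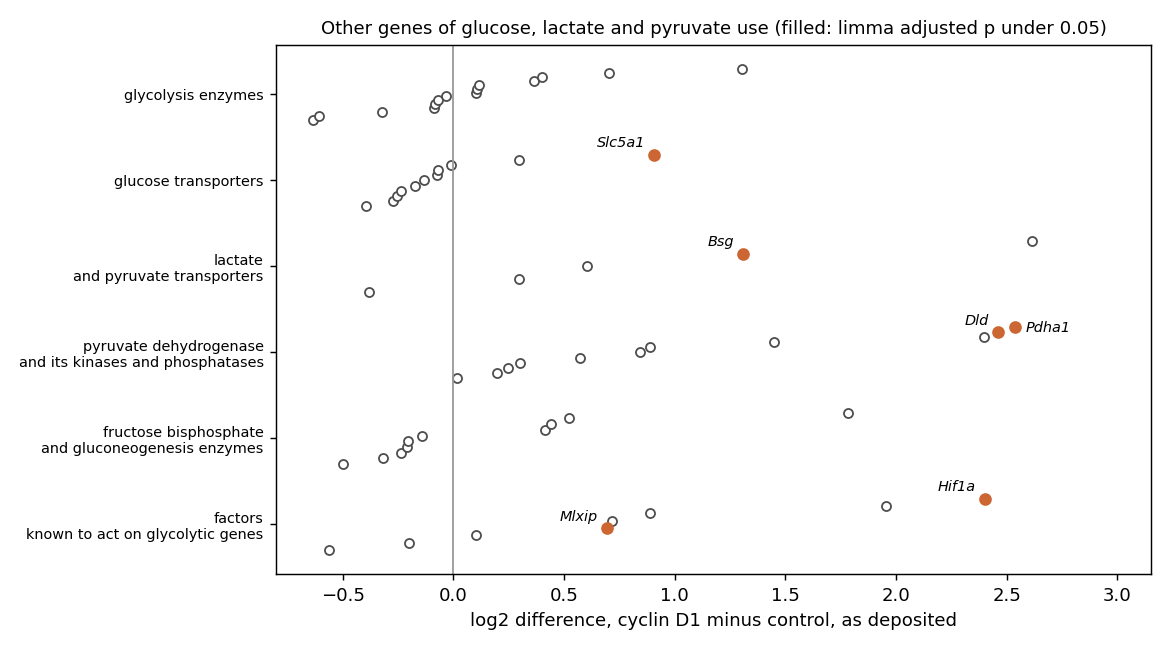
Log2 difference, cyclin D1 minus control, as deposited (x axis), of 59 other genes in 6 functional lists (y axis). Filled, named points passed the limma test (6 genes, all higher); the 11 genes of pyruvate dehydrogenase, its kinases and its phosphatases all lie to the right of 0 here, and 8 of 11 did renormalized.

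Cell type markers moved beside these genes, and their part in the differences was not tested; in whole gland RNA, more cells of a type and more RNA per cell cannot be told apart. Of all 55 measured markers 6 rose (10.9%, against 5.38% of all genes). The 5 measured markers of milk-secreting alveolar epithelium averaged 7.03 to 8.04 in the controls and 9.91 to 10.6 in the cyclin D1 glands. Of them 3 rose, and all 5 lay in the highest decile of mean level, where 36% of genes were called higher. The lowest difference was that of Csn2, 0.89, and the highest that of Wap, 4.45, neither passing. The 5 luminal markers averaged 3.79 to 3.80 in the controls and 4.86 to 5.39 in the cyclin D1 glands (2 of 5 rose, Epcam by 2.49). The 6 basal markers averaged 3.25 to 3.69 in controls and at least 4.05 in cyclin D1 glands (1 rose, Acta2 by 2.48). Of the basal differences 4 were positive, with Krt5 and Trp63 at 0.55 and 0.36, while Krt14 and Oxtr differed by -0.098 and -0.29. The 8 adipocyte markers averaged 5.07 to 5.20 in the controls and 4.50 to 5.77 in the cyclin D1 glands, with 0 passing by limma and 0 at an unadjusted p under 0.05; their median difference was -0.083, and -0.87 renormalized. All 3 epithelial averages stayed higher on every cyclin D1 array after renormalization. Alveolar markers averaged 9.52 to 10.1 against 7.95 to 8.47 and luminal markers 4.64 to 4.90 against 4.05 to 4.46. In each of these 2 lists 4 of 5 differences were then positive. Csn2 was at -0.088 and Krt18 at -0.55, and Krt8, at 0.16, overlapped between the groups. Epcam had the highest luminal difference, 1.54. Basal markers were barely apart, at 3.91 to 4.09 against 3.51 to 3.89. Endothelial, fibroblast, lymphocyte and red blood cell lists had 0 markers passing by limma and 0 at an unadjusted p under 0.05. Renormalized, 0 of all 55 measured markers passed (12 at an unadjusted p under 0.05, against 3736 of all 19938 genes).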

How the data were processed

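The deposited values are log2 expression per probe set, which the authors obtained by RMA (the submitters' processing notes name Affymetrix Expression Console 1.1); the log base was inferred from the range of 0.830 to 12.9. The array was a whole-transcript mouse array, per the labels' protocols. Which arrays were normalized together is not stated in the labels. Of 35556 probe sets, 21789 had 1 gene symbol, 1621 several and 12146 none in the platform annotation; a symbol with several kept its brightest probe set on average, with no filter on dim genes. Groups came from the sample titles, and the design text calls the mice separate. limma 3.58.1 in R 4.3.3 (lmFit, eBayes; 3 residual and 2.39 prior degrees of freedom) was fitted to all 19938 genes, two-sided, and was tested on simulated data. Isoform pairs were compared by exact permutation over 10 relabellings. No detection values or depth were used, so the number of arrays limits the precision. Named were the 10 genes, Ccnd1, and by rule the called and the 2 highest and 2 lowest genes of each pathway list. The genes and lists were chosen with earlier results of these data known. Alternatives: renormalization, centring, common spread, a dim-gene filter, trended or robust priors, array weights, other probe sets, the replicate block and arrays left out; the other probe sets of Hk1, Pgk1 and Ldhb were added after the data were seen, as was the olfactory receptor level used as a rough floor. Coordinates and promoters are from RefSeq GRCm38.p6, in which all 10 genes matched by Entrez identifier.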

Additional observations from a re-analysis of the deposited data

How the results depend on the processing

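Leaving out each array in turn gave 0 to 1365 genes higher and 0 to 1063 lower, 0 to 2 of the 10 genes higher, and 0 to 4 higher and 0 to 2 lower of the wider pathway genes; isoform shifts of opposite sign were met for Hk2-Hk3 (-0.28 to 0.078) and Pfkm-Pfkp (-0.087 to 0.24), and differences for Hk2 (-0.30 to 0.31), Hk3 (-0.023 to 0.24), Pfkm (-0.024 to 0.12) and Pfkp (-0.12 to 0.091). Against 1072 genes higher and 137 lower, with 1 of the 10 and 6 of the wider genes higher, renormalization left 51 and 21, with 0 and 0; Ldha-Ldhb was then -0.57, Hk2 -0.24, Pfkp -0.24 and Slc2a1 -0.030. With control 1 left out and the rest renormalized, the counts were 555 higher and 894 lower, with 0 of the 10, and 1 higher and 4 lower of the wider genes; Ldha-Ldhb was -0.126, Hk2 -0.70, Pfkp -0.089, Pgk1 -0.14 and Slc2a1 -0.69. Renormalized with the other probe sets, 51 and 21 genes passed, with 0 and 0 of the lists; Ldha-Ldhb was -0.595, Hk1-Hk3 -0.00049, Hk2 -0.241, Pfkp -0.244 and Slc2a1 -0.030. A common median and spread gave 597 and 71 genes and 2 wider genes higher, with Hk2 at -0.10 and Pfkp at -0.12. The dim-gene filter tested only genes above the median mean level and called 1457 of them higher and 56 lower. It called 3 of the 10 (Hk1 and Pgk1 beside Ldha, with fewer genes tested), and Hk3 and Pfkm were removed. An intensity trend gave 622 genes and 2 wider genes higher, and array weights 263 higher and 4 lower with 0 wider genes. With the replicate block 1137 genes were higher and 10 lower. In that fit 2 of the 10 (Ldha and Pgk1) and 2 wider genes were higher, and Hk2 was at -0.0074. The labels give no pairing beyond a shared replicate number. Correlations of same-numbered deviations across genes were -0.026 and 0.13, but with 2 control arrays they cannot decide whether mice were paired. The cause of these changes was not tested. Ldha kept its direction under all 18 alternatives and its call under 12 (in 3 of the other 6, with control 1, cyclin D1 replicate 1 or cyclin D1 replicate 2 left out, 0 of all genes passed); Pfkl and Ldhb kept their direction under 18 and passed under 0. The number of arrays, 5, and the lack of detection values limit all of this.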
